A study of Homo sapiens with 6 samples.

Results

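The genes described here are the zinc finger, BTB and Krüppel-like factor genes among those listed in the RNA-seq of PANX1-expressing Rh30 cells. They were taken by symbol, as the entries whose gene name starts with ZNF, ZBTB, ZSCAN, ZKSCAN, ZFP or KLF, and they numbered 30 of the 1273 entries. Of the 30 genes, 25 begin with ZNF, 3 with ZBTB, 1 with ZFP and 1 with KLF, and no gene of the list begins with ZSCAN or ZKSCAN. Rh30 is an established alveolar rhabdomyosarcoma (aRMS) line, a tumor type related to developing skeletal muscle. The PANX1 group was made of 3 libraries from stable Rh30 cells carrying a cumate-inducible PANX1 construct, and the GFP group of 3 libraries from stable Rh30 cells carrying the empty control plasmid. Both groups carry the CymR repressor, were kept under geneticin and puromycin and received cumate (30 µg/mL, 48 h). The methods of the study describe GFP as constitutive in all these cells, whereas the labels place the GFP of the control under the cumate switch. Whether either line derives from 1 clone is not given in the sources used here, so that line and transgene cannot be told apart. The values are FPKM, fragments scaled to transcript length and library size, and they carry no read counts, so that the table does not show how many reads lie behind a value. The list holds only genes that the authors had called at a false discovery rate under 0.05 in these same libraries. The direction and size of the differences below are therefore descriptions of selected genes, not a second test of them.

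Classical zinc finger transcription factors read DNA through tandem C2H2 fingers, small folds held together by a zinc ion. Many carry a further domain at the amino-terminal end. The KRAB domain recruits the corepressor TRIM28 and heterochromatin enzymes, SCAN and BTB domains mediate pairing between proteins, and Krüppel-like factors bind GC-rich boxes and CACCC boxes in promoters. In humans, a large share of these genes lies in clusters on chromosome 19. The symbols also cover proteins with other work, such as ZNF598, a ubiquitin ligase that acts on stalled ribosomes, and ZFPL1, a membrane protein of the Golgi, so that not every gene named here is a transcription factor.

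PANX1 itself was checked in every library. Its FPKM lay between 28.1 and 37.8 in GFP cells and between 123 and 184 in PANX1-expressing cells, a ratio of 4.26. Of the 15 muscle markers, 3 were listed, while MYOD1, MYOG and the other 10 were not among the listed genes and could not be checked. Desmin (DES) had an FPKM of 214 to 571 over the 6 libraries and a log2 ratio of 0.71 (0.53 without PANX1 replicate 3) that did not pass limma's test (adjusted p = 0.0885). CDH15, the cadherin of muscle cells, was called higher with 1.46 (0.71 without replicate 3, limma adjusted p = 0.0198). MYH8, a developmental myosin heavy chain, had low levels, 0.388 to 0.883 FPKM in GFP cells and 0.0301 to 0.260 in PANX1-expressing cells. MYH8 was called lower with -2.21 (-1.74 without replicate 3, limma adjusted p = 0.0354). Of 13 markers of immune, epithelial, endothelial and fibroblast cells, CD68, a macrophage marker, was listed, with 0.416 to 1.08 FPKM in GFP cells and 1.37 to 2.40 in PANX1-expressing cells. It was called higher with a log2 ratio of 1.49 (1.32 without replicate 3, limma adjusted p = 0.0349), and the part of these markers in the differences below was not tested. PANX1 replicate 3 stood apart from the other libraries. Over all 1273 genes the median log2 ratio to the mean GFP FPKM was 0.77, 0.61 and 1.87 in PANX1 replicates 1, 2 and 3, and the log2 ratio of mean FPKM of each gene named below is given with and without that library.

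Promoter sequences of 4 of the genes are printed to show the DNA that lies at these genes, for the higher gene with the largest difference (ZNF414), the Krüppel-like factor (KLF16) and both lower genes with a mean GFP FPKM above 10 (ZNF367 and ZNF711). Each runs 5′ to 3′ in the direction of transcription, from 250 bases before to 50 bases after the start of the gene, and was taken from RefSeq on GRCh38.p14, whereas all other coordinates here are hg19. Capitals mark the GC box GGGCGG on either strand, the kind of element that Krüppel-like and Sp factors bind. The positions are chr19:8514118-8514417 (minus strand) for ZNF414, chr19:1863530-1863829 (minus strand) for KLF16, chr9:96418321-96418620 (minus strand) for ZNF367 and chrX:85243741-85244040 (plus strand) for ZNF711.
ZNF414: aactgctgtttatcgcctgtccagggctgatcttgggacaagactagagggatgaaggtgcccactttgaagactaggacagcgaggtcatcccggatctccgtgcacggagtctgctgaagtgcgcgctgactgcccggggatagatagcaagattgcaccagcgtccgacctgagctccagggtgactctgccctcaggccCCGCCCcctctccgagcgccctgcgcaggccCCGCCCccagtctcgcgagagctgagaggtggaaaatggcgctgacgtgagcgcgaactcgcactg
KLF16: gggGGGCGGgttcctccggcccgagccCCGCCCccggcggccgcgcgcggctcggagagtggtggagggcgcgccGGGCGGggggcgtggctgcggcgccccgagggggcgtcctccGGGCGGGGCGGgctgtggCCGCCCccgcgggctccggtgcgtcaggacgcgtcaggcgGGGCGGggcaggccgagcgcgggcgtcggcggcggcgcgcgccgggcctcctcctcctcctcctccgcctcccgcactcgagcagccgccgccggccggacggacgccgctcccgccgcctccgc
ZNF367: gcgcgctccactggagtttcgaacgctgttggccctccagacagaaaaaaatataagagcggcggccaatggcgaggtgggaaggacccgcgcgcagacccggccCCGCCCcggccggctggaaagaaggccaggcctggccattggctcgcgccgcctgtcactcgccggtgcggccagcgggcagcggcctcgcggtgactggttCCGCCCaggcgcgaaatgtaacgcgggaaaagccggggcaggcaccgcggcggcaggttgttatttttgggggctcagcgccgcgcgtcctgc
ZNF711: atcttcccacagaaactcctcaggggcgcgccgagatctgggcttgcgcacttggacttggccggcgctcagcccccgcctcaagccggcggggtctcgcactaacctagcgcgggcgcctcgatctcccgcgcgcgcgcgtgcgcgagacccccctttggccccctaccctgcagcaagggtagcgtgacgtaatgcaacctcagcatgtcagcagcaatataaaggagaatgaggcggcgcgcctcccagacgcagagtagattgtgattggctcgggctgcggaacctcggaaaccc

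The KLF16 window held 7 GC boxes, some of which overlap, those of ZNF414 and ZNF367 held 2 each and that of ZNF711 held none. A promoter was found for 23 of the 30 genes. ZBTB17, ZNF223, ZNF524, ZNF76, ZNF777, ZNF703 and ZNF831 had no entry. Counting both strands, GGGCGG was present in 14 of the 20 higher genes with a promoter and in 2 of the 3 lower genes, in 45.0% of all 35116 promoters of that length and in 59.9% of the 823 promoters whose symbols share the prefixes. The CACCC box CCACCC was present in 12 of the 20 higher genes and in 0 of the 3 lower genes, against 34.3% of all promoters and 34.3% of those of the family. The ETS core CCGGAA was present in 11 of the 20 and 0 of the 3, against 17.2% and 40.5%. The E box CANNTG was present in 8 of the 20 and 1 of the 3, against 68.7% and 59.4%. These matches describe letters in a window and say nothing of binding. The median GC content of the window was 65.7% in the 20 higher genes, 65.0% in the 3 lower genes and 61.7% in the family.

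The question put to the 30 genes was whether their transcript levels differed between PANX1-expressing and GFP cells, and by how much in each culture. The mean FPKM was higher in PANX1-expressing cells in 26 genes (86.7%) and lower in 4 (13.3%), where 87.0% of all listed genes were higher. The median log2 ratio of mean FPKM was 1.31 over the 30 genes, 1.35 over the 26 higher genes and -1.14 over the 4 lower genes, against 1.23, 1.31 and -0.78 for the matching sets of all listed genes. The 26 higher genes ranged from 1.02 (ZNF598) to 2.47 (ZNF414), so that 86.7% of the 30 genes were above a log2 ratio of 1, against 72.0% of all listed genes. ZNF385B and ZNF831 were below -1, or 6.67% against 3.22%. Of the 30 genes, 24 (80.0%) were higher and 4 (13.3%) were lower without overlap between the groups, against 82.0% and 11.9% of all listed genes. The exceptions were ZNF335 and ZNF628. The share of genes in each direction thus lay close to that of the whole list. With libraries scaled by median of ratios, the whole list had a median log2 ratio of 0.041 in place of 1.23, and 20 of the 30 genes were above 0, with a median of 0.089. That scaling was computed on the listed genes alone, which are mostly higher, so that it brings their median near 0 by construction and moves all genes of a library alike.

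**Figure D1:**
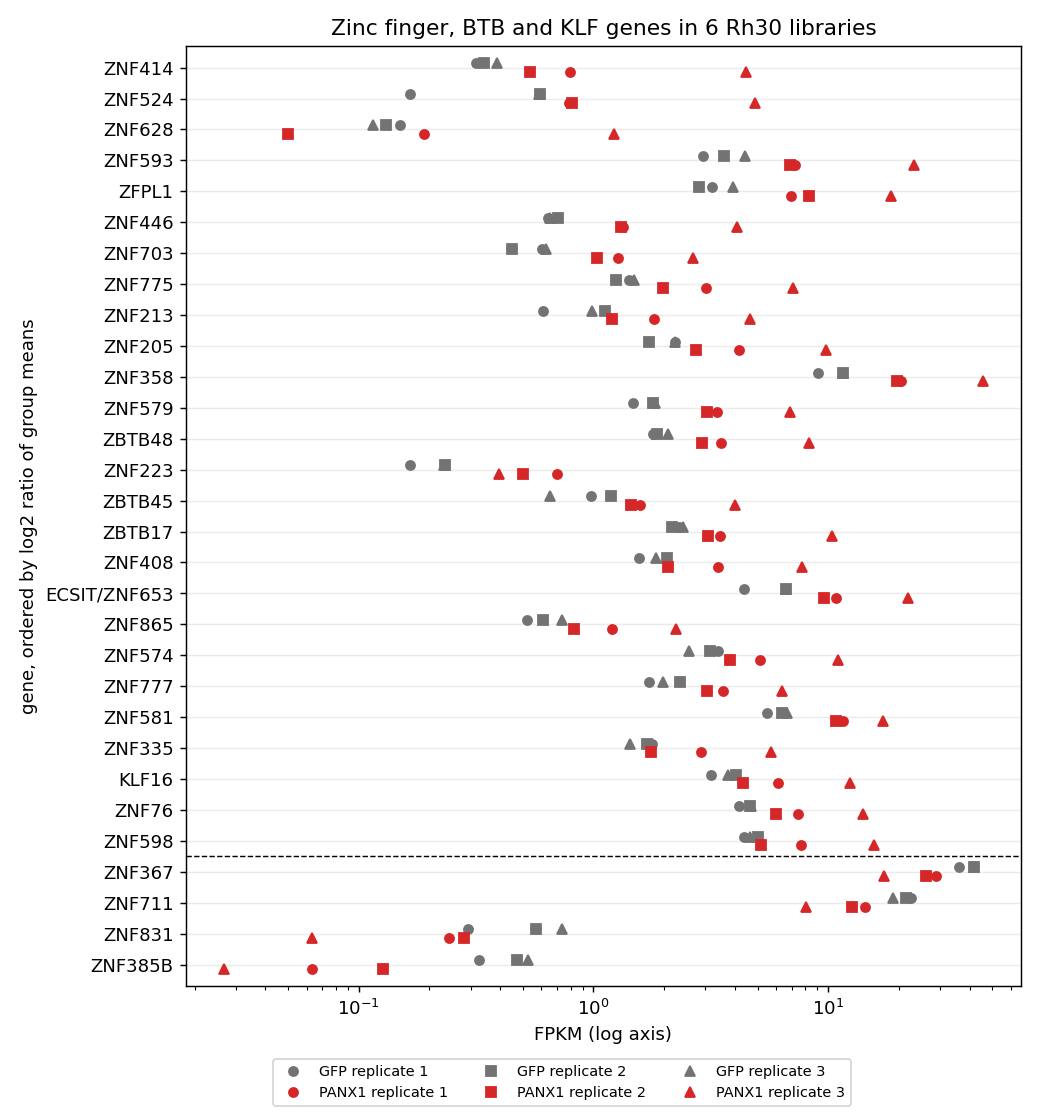
FPKM of the 30 genes (log axis) in each of 3 GFP libraries (gray) and 3 PANX1 libraries (red), 1 point per library, with symbols for the replicate numbers and genes ordered by the log2 ratio of the group means. The dashed line separates the 4 lower genes from the 26 higher genes. The PANX1 points lie clear of the GFP points in 28 of the 30 genes, and the triangle of PANX1 replicate 3 is the farthest from GFP in 29.

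In limma's test on log2(FPKM + 1), a scale that understates changes of low genes, 7 of the 30 genes (23.3%) were higher at an adjusted p-value under 0.05 and 0 were lower, where 33.5% of all listed genes were called higher and 0.707% lower. At an unadjusted p-value under 0.05 there were 15 higher genes and 1 lower gene (ZNF385B) of the 30, against 744 higher and 43 lower of all 1273 listed genes. The 7 called genes were ZNF414, ZNF524, ZNF446, ZNF358, ZFPL1, ZNF703 and ZNF593. An exact two-sided permutation test gave p = 0.1 for each of these 7, the smallest p that 3 libraries against 3 allow. Without any 1 of the 3 GFP libraries, 0 of the 30 genes were called higher by limma. Its unadjusted p-value was under 0.05 in 5 to 7 of them. Of all 1273 listed genes, 8, 14 and 51 were called higher without GFP replicates 1, 2 and 3. Without PANX1 replicate 1, 5 of the 30 genes and 300 of all listed genes were called higher. Without replicate 2 these counts were 17 and 716, and without replicate 3 they were 21 and 994. After median-of-ratios scaling and after a correction for GC content none of the 30 genes was called. Of all listed genes fitted, 0 of 1273 and 9 of 1186 were then called higher, and 0 lower in both. Limma's unadjusted p-value was under 0.05 in 2 higher and 4 lower of the 30 genes after the scaling. After the GC correction it was so in 4 higher and 6 lower genes. Unadjusted counts over all listed genes were made only for the values as deposited.

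ZNF414, a zinc finger gene on chromosome 19, had the largest difference among the higher genes. Its FPKM was 0.315, 0.343 and 0.389 in GFP replicates 1, 2 and 3 and 0.797, 0.539 and 4.46 in PANX1 replicates 1, 2 and 3. All PANX1 values were above all GFP values, and replicate 3 was far above the other two. The means were 0.349 ± 0.0374 (SD, n = 3) and 1.93 ± 2.19 (SD, n = 3), a log2 ratio of 2.47 that was 0.94 without PANX1 replicate 3. By limma, log2(FPKM + 1) rose by 0.87 (standard error 0.257), and the Benjamini-Hochberg adjusted p of 0.00968 ranged from 0.000638 to 0.83 over the alternatives. The change of ZNF414 was 0.068 after the GC correction. ZNF524, a zinc finger protein that binds telomeric repeats, had 0.165, 0.592 and 0.585 FPKM in GFP cells and 0.786, 0.814 and 4.87 in PANX1-expressing cells. The groups did not overlap, but GFP replicates 2 and 3 were nearer to PANX1 replicates 1 and 2 than to GFP replicate 1. Its log2 ratio was 2.27, or 0.84 without PANX1 replicate 3, with a limma change of 0.90 (standard error 0.273, adjusted p = 0.0128). After the GC correction its change was -0.046.

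ZNF593, which encodes a small single-finger protein, had 2.93, 3.59 and 4.41 FPKM in GFP cells and 7.19, 6.86 and 23.3 in PANX1-expressing cells. Its lowest PANX1 value exceeded its highest GFP value by more than the SD of the GFP group, 0.737. The log2 ratio was 1.77, and 0.95 without PANX1 replicate 3. ZFPL1, the Golgi protein, had 3.20, 2.81 and 3.94 FPKM in GFP cells and 6.92, 8.29 and 18.6 in PANX1-expressing cells. It had the largest limma change of the 30 genes, 1.40 (standard error 0.524, adjusted p = 0.0347), and its log2 ratio of means was 1.76, or 1.20 without PANX1 replicate 3. ZNF358 had the highest level of the higher genes, with 9.02, 11.5 and 11.6 FPKM in GFP cells and 20.4, 19.6 and 45.5 in PANX1-expressing cells. PANX1 replicates 1 and 2 were close to each other and well above GFP. The log2 ratio was 1.41 (0.90 without PANX1 replicate 3), with an adjusted p of 0.0325 in limma. ZNF703, a corepressor of the NET family and a known oncogene of luminal breast cancer on chromosome 8, had 0.605, 0.45 and 0.629 FPKM in GFP cells and 1.27, 1.03 and 2.66 in PANX1-expressing cells. It was 1 of 3 higher genes whose log2 ratio stayed above 1 without PANX1 replicate 3, at 1.04 against 1.56 with it.

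ZNF446, which encodes a protein with a SCAN and a KRAB domain, had 0.640, 0.703 and 0.651 FPKM in GFP cells and 1.34, 1.31 and 4.08 in PANX1-expressing cells. The spread of the GFP values, 0.0337 (SD, n = 3), was small against the difference, and the log2 ratio was 1.75, or 0.996 without PANX1 replicate 3 (limma adjusted p = 0.0298). ZNF213, which also pairs a SCAN with a KRAB domain, had 0.607, 1.12 and 0.990 FPKM in GFP cells and 1.80, 1.20 and 4.65 in PANX1-expressing cells. Its GFP replicate 2 came close to its PANX1 replicate 2, and its log2 ratio of 1.5, or 0.73 without PANX1 replicate 3, did not pass the test (limma adjusted p = 0.0516).

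ZNF223, a KRAB zinc finger gene of the chromosome 19 clusters, went against the pattern of the other higher genes. It had 0.166, 0.233 and 0.230 FPKM in GFP cells and 0.701, 0.501 and 0.397 in PANX1-expressing cells. Every PANX1 value was above every GFP value, and replicate 3 was the lowest of the PANX1 libraries, not the highest. The log2 ratio was 1.35 and became 1.52 without PANX1 replicate 3. It was the only 1 of the 30 genes in which PANX1 replicates 1 and 2 were each at least 2 times the highest GFP value, as were 4.32% of all listed genes. On the log2(FPKM + 1) scale its change of 0.34 did not pass the test (standard error 0.195, limma adjusted p = 0.103). The GC correction gave 0.69 (limma adjusted p = 0.0836, or 0.0445 in the fit that also blocked on replicate numbers). ZNF223 also had the lowest transcript GC content of the higher genes, 43.1%. Its exons share 1513 bases with a second protein-coding gene model on the same strand in the annotation, and close relatives lie in the same cluster, so that its level is uncertain.

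The BTB genes were ZBTB17, ZBTB48 and ZBTB45, none of which passed the test. ZBTB17 encodes MIZ1, a factor that activates or, together with MYC, represses its targets. Its FPKM was 2.32, 2.16 and 2.41 in GFP cells and 3.47, 3.07 and 10.4 in PANX1-expressing cells, with a log2 ratio of 1.29 that was 0.51 without PANX1 replicate 3. ZBTB48, or TZAP, is a telomere-binding protein that trims long telomeres. It had 1.79, 1.87 and 2.08 FPKM in GFP cells and 3.48, 2.90 and 8.31 in PANX1-expressing cells, with a log2 ratio of 1.36 (0.74 without that library). ZBTB45 had 0.974, 1.19 and 0.656 FPKM in GFP cells and 1.58, 1.44 and 3.99 in PANX1-expressing cells, with a log2 ratio of 1.32 (0.69 without it). In all 3 BTB genes the groups did not overlap and PANX1 replicate 3 was the highest. Their log2 ratios differed by less than 0.1 from each other, and limma's adjusted p was 0.0977, 0.0773 and 0.0662 in the same order of genes.

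KLF16, a repressor of the Krüppel-like family that binds GC boxes, had 3.17, 4.04 and 3.74 FPKM in GFP cells and 6.09, 4.35 and 12.4 in PANX1-expressing cells. PANX1 replicate 2 exceeded the highest GFP value by less than the SD of the GFP group, 0.446. The log2 ratio was 1.06, or 0.52 without PANX1 replicate 3, and the limma change of 0.78 did not pass the test (standard error 0.519, adjusted p = 0.139). The change was -0.12 after median-of-ratios scaling and -0.33 after the GC correction. It was the only listed gene of the 18 annotated with the KLF prefix. Of the 20 relatives and partners of that family, the Sp and EGR factors among them, EGR1 alone was listed. EGR1, an immediate early gene, had 35.0, 82.3 and 48.0 FPKM in GFP cells and 40.9, 19.5 and 19.7 in PANX1-expressing cells, with overlap between the groups. Its log2 ratio was -1.04, or -0.87 without PANX1 replicate 3, and limma called it lower (adjusted p = 0.0398).

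Of the remaining higher genes, ZNF775 on chromosome 7 had 1.42, 1.25 and 1.48 FPKM in GFP cells and 3.01, 1.98 and 7.09 in PANX1-expressing cells. Its log2 ratio of 1.54, or 0.85 without PANX1 replicate 3, did not pass the test (limma adjusted p = 0.0548). The entry on chromosome 19 that joins ZNF653, a transcriptional repressor, with its neighbor ECSIT, a factor in mitochondrial complex I assembly, had 4.36, 6.59 and 6.61 FPKM in GFP cells and 10.8, 9.61 and 21.9 in PANX1-expressing cells. The joint log2 ratio was 1.27 (0.80 without PANX1 replicate 3), and the values cannot be divided between the 2 genes. ZNF581 had 5.49, 6.34 and 6.70 FPKM in GFP cells and 11.6, 10.8 and 17.1 in PANX1-expressing cells, the smallest excess of PANX1 replicate 3 over the mean of replicates 1 and 2 among higher genes with replicate 3 on top, 0.61 on the log2 scale. Its log2 ratio to GFP was 1.09, and 0.86 without replicate 3. ZNF205, ZNF408, ZNF574, ZNF579, ZNF777 and ZNF865 had log2 ratios from 1.10 to 1.43 (0.56 to 0.91 without PANX1 replicate 3) and mean GFP levels from 0.621 to 3.02 FPKM, without overlap and without passing the test.

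The smallest differences among the higher genes were those of ZNF598, ZNF76 and ZNF335, besides KLF16 and ZNF581. ZNF598, the ribosome-associated ubiquitin ligase, had 4.36, 5.03 and 4.62 FPKM in GFP cells and 7.64, 5.19 and 15.6 in PANX1-expressing cells. PANX1 replicate 2 lay within the SD of the GFP group, 0.339, of the highest GFP value, and the log2 ratio of 1.02 was 0.46 without replicate 3. ZNF76, a relative of the promoter factor ZNF143, had 4.15, 4.64 and 4.71 FPKM in GFP cells and 7.45, 6.0 and 14.1 in PANX1-expressing cells, with a log2 ratio of 1.03 (0.58 without replicate 3). ZNF335, a subunit of nuclear receptor coregulator complexes whose loss causes microcephaly, had 1.77, 1.69 and 1.42 FPKM in GFP cells and 2.87, 1.76 and 5.70 in PANX1-expressing cells. Its PANX1 replicate 2 lay below GFP replicate 1 (exact two-sided permutation test, p = 0.2, where 0.1 is the smallest p that 3 libraries against 3 allow), and its log2 ratio was 1.08, or 0.51 without replicate 3. ZNF628, on chromosome 19, rested on 1 library. It had 0.150, 0.131 and 0.115 FPKM in GFP cells and 0.190, 0.050 and 1.22 in PANX1-expressing cells, with PANX1 replicate 2 below all GFP values. Its log2 ratio of 1.89 became -0.13 without PANX1 replicate 3 (exact two-sided permutation test over all 6 libraries, p = 0.7).

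The 4 lower genes lay on chromosomes 2, 9, 20 and X, and none was on chromosome 19. ZNF367, a zinc finger transcription factor, had the highest mean level of the 30 genes in GFP cells, with 36.1, 41.9 and 41.6 FPKM in GFP cells and 28.9, 26.2 and 17.2 in PANX1-expressing cells. The lowest GFP value and the highest PANX1 value were 36.1 and 28.9, more than the SD of either group apart. The means were 39.9 ± 3.26 (SD, n = 3) and 24.1 ± 6.09 (SD, n = 3), a log2 ratio of -0.73 that was -0.54 without PANX1 replicate 3. ZNF711, an X-linked factor that works with the histone demethylase PHF8 and is mutated in intellectual disability, had 22.5, 21.4 and 18.8 FPKM in GFP cells and 14.3, 12.6 and 8.07 in PANX1-expressing cells. Its means were 20.9 ± 1.91 (SD, n = 3) and 11.7 ± 3.22 (SD, n = 3), a log2 ratio of -0.85, or -0.64 without PANX1 replicate 3. Neither gene passed the test, with limma adjusted p of 0.0957 in both. With that library left out their adjusted p was 0.00895 and 0.00651. In that fit limma called 994 of all 1273 listed genes higher and 146 lower. After the GC correction the limma change of ZNF367 went from -0.73 to -0.44 (adjusted p = 0.104) and that of ZNF711 from -0.82 to -0.11 (adjusted p = 0.597).

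The other lower genes were expressed at low levels. ZNF385B, of a family with widely spaced zinc fingers, had 0.325, 0.472 and 0.526 FPKM in GFP cells and 0.0636, 0.127 and 0.0267 in PANX1-expressing cells. Its log2 ratio of -2.61 was the largest in size of all 30 genes and ranged from -3.29 to -2.21 when single libraries were omitted. It missed the threshold in limma, with a difference in log2(FPKM + 1) of -0.42 (standard error 0.178, adjusted p = 0.0504), whereas a pseudocount of 0.1 gave -1.67 with an adjusted p of 0.00356. ZNF831, a little-studied gene on chromosome 20, had 0.293, 0.569 and 0.735 FPKM in GFP cells and 0.244, 0.281 and 0.0630 in PANX1-expressing cells. GFP replicate 1 was within the SD of the GFP group, 0.223, of PANX1 replicates 1 and 2. Its log2 ratio was -1.44, or -1.02 without PANX1 replicate 3 (limma adjusted p = 0.0923). These 4 genes had lower values in every PANX1 library than in every GFP library, and replicate 3 was the lowest in each (exact two-sided permutation test, p = 0.1 for each gene).

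**Figure D2:**
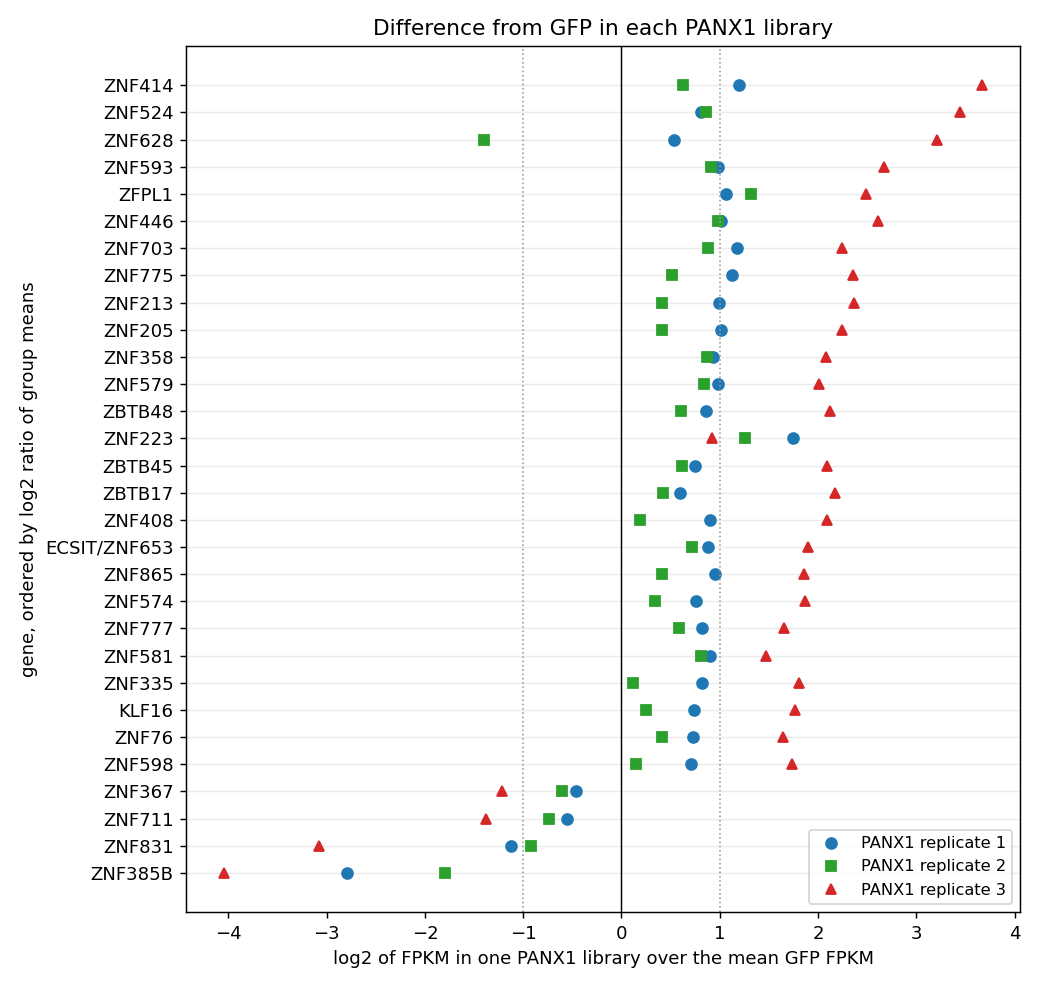
Log2 ratio of the FPKM in each PANX1 library to the mean GFP FPKM (x axis) for the 30 genes (y axis), with 1 symbol per library and dotted lines at 1 and -1. The medians over the 26 higher genes are 0.90, 0.59 and 2.09 in replicates 1, 2 and 3, and ZNF223 is the only higher gene with replicate 3 nearest to GFP.

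The size of the difference was set apart by library in both directions. Over the 26 higher genes the median log2 ratio to the mean GFP FPKM was 0.90, 0.59 and 2.09 for PANX1 replicates 1, 2 and 3. Over the 4 lower genes the medians were -0.84, -0.83 and -2.23. Among PANX1 libraries, replicate 3 ranked on top in 25 of the 26 higher genes and at the bottom in 4 of the 4 lower genes, against 97.6% and 95.8% of all listed higher and lower genes. Without replicate 3 the median log2 ratio was 0.74 over the higher genes and -0.83 over the lower genes, and 25 of the 26 higher genes stayed above 0, with ZNF628 as the exception. Then 3 of the 26 higher genes (ZNF223, ZFPL1 and ZNF703) were beyond a log2 ratio of 1 or -1, against 240 of all 1108 listed higher genes. So were 2 of the 4 lower genes (ZNF385B and ZNF831), against 20 of all 165 listed lower genes.

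On the chromosomes given by the listed loci, 13 of the 26 higher genes lay on chromosome 19. The others were 3 each on chromosomes 1 (ZBTB17, ZBTB48 and ZNF593) and 16 (ZNF205, ZNF213 and ZNF598), 2 each on chromosomes 7 (ZNF775 and ZNF777) and 11 (ZNF408 and ZFPL1), and 1 each on chromosomes 6 (ZNF76), 8 (ZNF703) and 20 (ZNF335). The median log2 ratio was 1.35 for the 13 genes on chromosome 19 and 1.36 for the 13 elsewhere. Of these, 4 and 3 were called higher by limma. Among all listed higher genes, 98 of 227 on chromosome 19 and 426 of 1108 over all chromosomes were called. Of the 630 protein-coding genes annotated with these prefixes, 267 lie on chromosome 19, and 13 of these 267 (4.87%) were listed. Of all 1480 protein-coding genes on that chromosome, 212 (14.3%) were listed. Over all chromosomes, 4.76% of the family and 5.81% of protein-coding genes were listed.

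Within chromosome 19, 5 of the genes stood close together, with other genes between them. ZNF628, ZNF579, ZNF524, ZNF865 and ZNF581 span chr19:55987699-56156989 of hg19, a stretch of 169 kb with 13 annotated protein-coding genes, 7 of them from this family. The list held 7 entries in the stretch, and 7 of 7 were higher, where 87.0% of all listed genes were higher. Their mean GFP values ran from 0.132 FPKM (ZNF628) to 6.18 (ZNF581). ZNF446 and ZBTB45 stood within 43.1 kb near the end of the long arm, and ZNF205 and ZNF213 within 32.3 kb on chromosome 16. The library kit did not mark strand. ZNF446 shares 1131 exonic bases with SLC27A5 on the opposite strand, and ZFPL1 shares 2351 with TMEM262. ZNF593 shares 732 with ZNF593OS and ZNF524 shares 273 with FIZ1, also on opposite strands. On the same strand, ZNF581 shares 122 with CCDC106, which is itself listed. ZNF358 and ZNF653 share 418 and 471 with further protein-coding gene models on their own strand. Reads from all these stretches cannot be told apart.

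Transcript GC content was set beside that of the whole gene family, as a description with no test. The median transcript GC content was 63.8% in the 26 higher genes and 45.7% in the 4 lower genes, against 43.5% over the 630 annotated family genes and 49.1% over all protein-coding genes. Transcripts of 58% GC or more were found in 87 of the family genes, and 25 of these 87 (28.7%) were listed, all of them higher in PANX1-expressing cells. Of the 461 family genes under 50% GC, 4 were listed, with ZNF223 higher and ZNF385B, ZNF367 and ZNF711 lower, and of the 82 genes between these limits only ZNF831 was listed, which was lower. These limits were chosen with the values known. Other listed genes showed the same division, with medians of 61.6% in 1007 higher (first quartile 58.9%) and 39.1% in 149 lower genes. The listed share of all protein-coding genes of 58% GC or more was not computed. Across the 30 genes, GC content and the excess of PANX1 replicate 3 over replicates 1 and 2 were related with Spearman's rho 0.457. It was 0.658 over the 1186 listed genes with a GC value, and 0.177 across the 26 higher genes alone. For the mean of PANX1 replicates 1 and 2 over GFP the values were 0.203 over the 30 genes and 0.444 over the whole list. Across the 26 higher genes alone the value was -0.163. The 30 genes and the whole list pool higher and lower genes, which differ in both quantities, so that their values partly follow direction. No value was computed for the listed higher genes alone. All are descriptions of genes that share the same 6 libraries. The part of GC content in the differences between the groups was not tested.

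**Figure D3:**
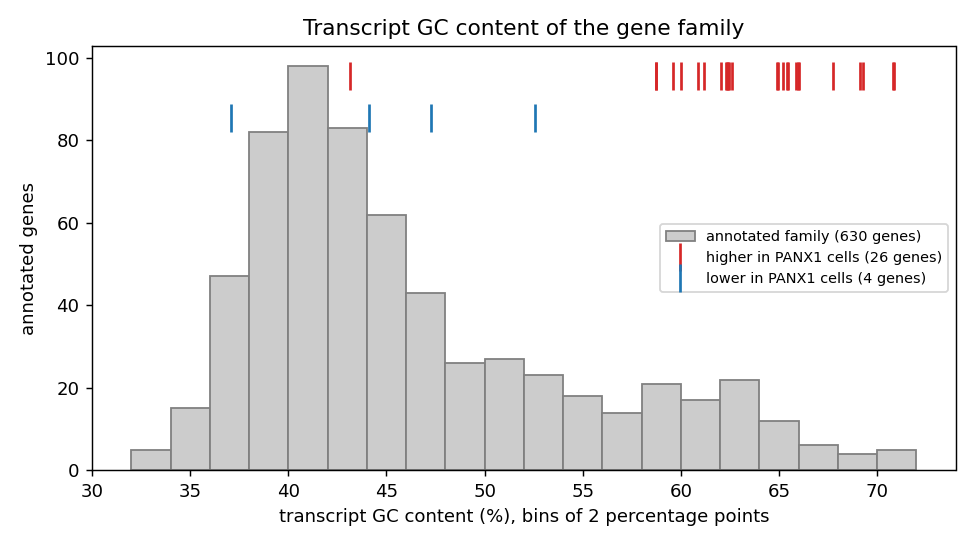
Number of annotated genes with the ZNF, ZBTB, ZSCAN, ZKSCAN, ZFP or KLF prefix (y axis, gray bars, 630 genes) by transcript GC content (x axis, percent), with red ticks for the 26 higher and blue ticks for the 4 lower genes at their own GC content. The red ticks lie at 58% or more except for ZNF223 at 43.1%, and the heights of the ticks carry no value.

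Proteins through which zinc finger repressors act were counted in the list, which holds 5.81% of all protein-coding genes. Of 12 KRAB cofactors, TRIM28 alone was listed. TRIM28, the corepressor that KRAB domains bind, had 48.1, 56.0 and 51.0 FPKM in GFP cells and 89.5, 68.7 and 190 in PANX1-expressing cells, and was called higher with a log2 ratio of 1.17 (limma adjusted p = 0.0333), or 0.61 without PANX1 replicate 3. Of 15 corepressors and ubiquitin ligase partners of BTB proteins, HDAC5 was higher and TBL1XR1, a subunit of the NCOR complex, was lower, with log2 ratios of 1.04 and -0.78 (0.82 and -0.50 without replicate 3), and neither passed the test. Of 11 subunits of the NuRD remodeling complex, MBD3 alone was listed and was called higher, with 1.87, 2.46 and 2.79 FPKM in GFP cells and 7.13, 4.66 and 36.1 in PANX1-expressing cells and a log2 ratio of 2.75 (1.31 without replicate 3). Replicate 3 was the farthest from GFP in each of these 4 genes.

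**Figure D4:**
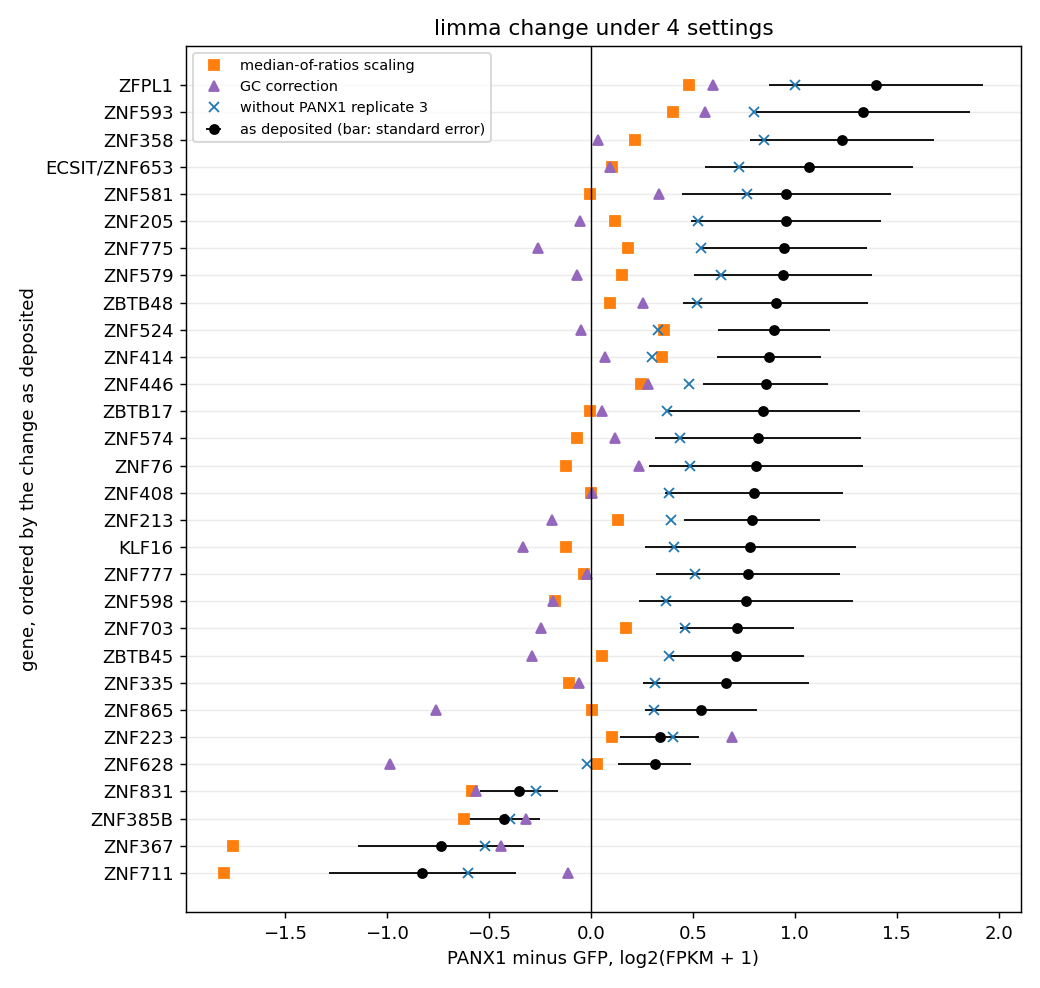
Change of each of the 30 genes between PANX1-expressing and GFP cells (x axis, log2(FPKM + 1)) by limma on the values as deposited (black, with bars of 1 standard error), after median-of-ratios scaling (orange), after a correction for GC content (purple) and without PANX1 replicate 3 (blue). As deposited 26 changes are above 0, against 17 after median-of-ratios scaling, 13 after the GC correction and 25 without replicate 3.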

How the data were processed

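RNA from 3 GFP and 3 PANX1 cultures of Rh30 cells was sequenced from poly(A)-selected libraries. The authors aligned reads to hg19 (TopHat2 2.0.13, Bowtie2 2.2.3) and computed FPKM with Cufflinks 2.2.1, and the deposited table gives FPKM of 1273 called genes per library. How Cufflinks scaled libraries against each other is not given in the sources used here, and the table holds no depth per library. Groups and replicate numbers came from the sample titles, which match the columns. From these values, log2 ratios of mean FPKM were computed without a pseudocount, and differences were tested over the whole table with limma 3.58.1 (R 4.3.3; trend, no block, Benjamini-Hochberg adjustment, threshold 0.05) on log2(FPKM + 1). Replicates are described as biological replicates by the authors. Genes, lists and limits were chosen with earlier results of these data known. Values per library were given for lower genes, genes with a KLF, ZBTB or ZFP prefix, the 8 largest and 4 smallest positive ZNF ratios, the 5 most abundant ZNF genes in GFP cells, genes that overlap between groups, and genes at least doubled in PANX1 replicates 1 and 2. The alternatives were a pseudocount of 0.1, a minimum mean FPKM of 1, no trend, replicate blocks, median-of-ratios scaling, GC correction, group medians and leaving out each library. The GC correction subtracted each library's linear slope on transcript GC content (longest coding transcript, GENCODE v44lift37 on hg19, 1186 genes and all 30 members matched), and also removes true differences that follow GC content. Starts are given with 1 added to those of the table. Promoters came from RefSeq. Python 3.11.15, pandas 2.3.3, scipy 1.17.1 and matplotlib 3.10.9 were used.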

Additional observations from a re-analysis of the deposited data

How the results depend on the processing

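Of the 30 genes, 7 were called higher and 0 lower as deposited, against 426 and 9 of all 1273 listed genes. A pseudocount of 0.1 gave 7 and 2, against 500 and 22 of all listed genes. The filter at a mean FPKM of 1 gave 3 and 0, against 321 and 4 of the 1161 genes that passed it. Limma without a trend called none of the 30 (unadjusted p under 0.05 in 12 and 1) and 0 of all listed genes. None of the 30 was called by limma after median-of-ratios scaling (unadjusted p under 0.05 in 2 and 4) or after the GC correction (4 and 6). Unadjusted counts over all listed genes were not made for these settings or for the fit without a trend. Of all listed genes, the scaling left 0 called and the GC correction 9 higher and 0 lower of 1186. Omitting single libraries, 0 to 21 of the 30 genes were called higher and 0 to 3 lower, against 8 to 994 and 0 to 146 of all listed genes. The methods speak of matching replicates, but no source used here ties a title number to a shared culture or day, and same-numbered libraries deviated from their group means with correlations across genes of 0.416, -0.362 and 0.143, so that the libraries were treated as unpaired. With a block by title number 9 of the 30 genes were called higher and 0 lower, against 581 and 33 of all listed genes. With that block and the GC correction the counts were 1 and 1, against 81 and 10 of 1186. The sample descriptions number the libraries differently, and pair GFP replicates 2 and 3 with PANX1 replicates 1 and 2. Those pairs had correlations of -0.0061 and 0.0527, and GFP replicate 1 and PANX1 replicate 3 had no partner. A replicate block by the description numbers, chosen after seeing the data, gave 19 and 4, against 1005 and 140 of all listed genes. This block leaves GFP replicate 1 and PANX1 replicate 3 without weight.

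The median log2 ratio of 1.31 was 0.83 with group medians, 0.089 after median-of-ratios scaling and 0.72 to 1.58 when single libraries were omitted. Genes above a log2 ratio of 1, 26 of 30, numbered 7 with group medians, 0 after median-of-ratios scaling and 3 to 26 when single libraries were omitted, and those below -1, 2 of 30, 2, 4 and 2 to 3.

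Median-of-ratios scaling was computed on a list of mostly higher genes and centres it by construction, so that the signs it turns are relative to that list. On the log2(FPKM + 1) scale it reversed ZBTB17 (-0.0048), ZNF408 (-0.0009), ZNF598 (-0.18), ZNF574 (-0.065), ZNF581 (-0.0028), KLF16 (-0.12), ZNF335 (-0.11), ZNF76 (-0.12) and ZNF777 (-0.031). The GC correction, with or without the replicate block, reversed ZNF205 (-0.055), ZNF213 (-0.19), ZNF598 (-0.18), ZNF628 (-0.98), ZNF524 (-0.046), ZNF865 (-0.76), KLF16 (-0.33), ZNF579 (-0.065), ZBTB45 (-0.29), ZNF335 (-0.057), ZNF775 (-0.26), ZNF777 (-0.0195) and ZNF703 (-0.24). ZNF628, whose change lay between -0.018 and 0.5235 when single libraries were omitted, was also reversed without PANX1 replicate 3 and with the block by description numbers (-0.0063). The slopes of the GC correction were likewise fitted on the listed genes alone, where most higher genes are rich in GC. The signs that it turned are therefore also relative to that list. Of the changes it reversed, only that of ZNF628 passed limma's test, and only with the block by title number (adjusted p = 0.0232). The causes were not tested.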
